A study of Mus musculus with 6 samples.

Results

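The genes described here were 10 transcripts of the osteoblast lineage (OBL) among the 37991 genes counted in cells labelled as bone endothelial cells (BECs) of 12-week-old mice. They were listed by name for their place in bone formation: the transcription factors Runx2 and Sp7, the enzyme Alpl, the matrix genes Bglap, Bglap2, Ibsp, Spp1, Dmp1 and Sparc, and the peptidase Phex. The libraries came from mice of the strain labelled c57/Bl6, for which the labels give no treatment, 3 from females and 3 from males, all aged 12 weeks. Cells were freshly taken from the tibia, sorted by expression of endomucin, a sialomucin of vein and capillary endothelium, and their RNA was sequenced. The study's methods instead describe tibiae and femurs, with endomucin-expressing cells isolated on magnetic beads. Replicates are numbered 1 to 3 within a sex by the labels, which do not say that they came from separate animals, so the p-values below measure the spread between these samples.

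Osteoblasts arise from mesenchymal progenitors of the bone marrow and periosteum. RUNX2 starts the programme and osterix, the product of Sp7, acts downstream of it, after which the cells lay down a collagen matrix and its calcium-binding proteins. Some osteoblasts become buried as osteocytes, which make DMP1 and PHEX and control phosphate. Several of these transcripts are not confined to osteoblasts: marrow stromal cells can carry Alpl and Ibsp, macrophages and other cells make Spp1, and endothelial cells and megakaryocytes make Sparc. In bulk RNA, fewer cells of a type and less RNA per cell cannot be told apart.

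Total counts lay between 47678806 and 58325745 per library, at which 3 counts correspond to 0.0477 to 0.0639 CPM, the unit in which counts are divided by library size. All CPM values here are scaled with the trimmed mean of M-values (TMM) of edgeR. Against the endothelial label, markers of macrophages, neutrophils and CXCL12-abundant reticular (CAR) stroma summed to more than those of endothelium. The summed level of 18 endothelial markers lay between 235 and 577 CPM, while 10 macrophage markers summed to between 3385 and 5464 CPM, 12 neutrophil markers to between 17868 and 41860 CPM and 8 markers of CAR stroma to between 1079 and 2808 CPM. Most of the CAR sum was Cxcl12 alone, with 2213 of 2659 CPM in female replicate 1 and 927 of 1079 CPM in male replicate 2. Sums over lists of different size and level do not rank the cell types by number. Emcn, the endomucin gene of the sort, had 8.19 ± 2.63 CPM in females (SD, n = 3) and 4.67 ± 1.86 CPM in males (SD, n = 3). The 10 OBL genes together summed to 632, 424 and 733 CPM in female replicates 1, 2 and 3 and to 493, 360 and 604 CPM in male replicates 1, 2 and 3. Their mean was 596 ± 158 CPM in females (SD, n = 3) and 485 ± 122 CPM in males (SD, n = 3), with overlap between the sexes.

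The genes lie on 7 chromosomes, and several are neighbours (GRCm39). Dmp1 (chr5:104345340-104361974), Ibsp (chr5:104447037-104459338) and Spp1 (chr5:104582165-104589235) stand in this order on the plus strand within a cluster of 5 genes, also holding Dspp and Mepe, that spans 271 kb and encodes acidic glycoproteins of bone and dentine. Bglap2 (chr3:88285043-88286060) and Bglap (chr3:88290808-88291771) stand on the minus strand beside Bglap3 within 15.8 kb. The promoters of 3 of the matrix genes are given to show how neighbouring and functionally related members are built around the transcription start. The RUNX factors bind the core letters ACCACA. These, and their reverse complement TGTGGT, were searched from 250 bases before to 50 bases after each start in the RefSeq promoters of GRCm38.p6, and capitals mark each match:
Bglap, chr3:88384417-88384716, minus strand: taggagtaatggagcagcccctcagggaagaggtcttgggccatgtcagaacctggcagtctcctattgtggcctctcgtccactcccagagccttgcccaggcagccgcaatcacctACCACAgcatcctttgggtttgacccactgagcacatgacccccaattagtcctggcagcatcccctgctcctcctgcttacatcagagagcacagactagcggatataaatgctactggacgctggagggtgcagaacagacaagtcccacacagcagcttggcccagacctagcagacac
Spp1, chr5:104434861-104435160, plus strand: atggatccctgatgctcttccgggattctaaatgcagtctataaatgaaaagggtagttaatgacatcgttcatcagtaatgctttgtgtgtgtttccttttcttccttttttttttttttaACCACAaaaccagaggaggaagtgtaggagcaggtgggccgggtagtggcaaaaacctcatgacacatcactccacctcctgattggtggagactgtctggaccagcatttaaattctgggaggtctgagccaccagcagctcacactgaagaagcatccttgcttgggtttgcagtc
Ibsp, chr5:104299037-104299336, plus strand: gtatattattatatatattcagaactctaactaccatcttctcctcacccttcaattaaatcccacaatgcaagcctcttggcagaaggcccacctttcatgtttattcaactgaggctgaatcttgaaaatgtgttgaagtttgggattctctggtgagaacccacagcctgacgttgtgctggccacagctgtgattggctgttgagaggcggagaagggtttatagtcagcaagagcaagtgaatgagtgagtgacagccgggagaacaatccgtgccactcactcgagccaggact

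The match in Bglap began at position -132 and that in Spp1 at position -128 from the start, and the Ibsp window held none. The promoter set held 8 of the 10 genes with 11 start sites, and 5 of the 11 windows, from 5 genes (Bglap, Spp1, Dmp1, Sparc and Runx2), carried the letters. Of all 32851 promoter windows of this length, 16.8% carried them. A match describes the letters and is not evidence of binding.

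Compared per kilobase of exon, matrix genes held the first 5 places and, with Dmp1, the last. Sparc, which encodes osteonectin, was highest with 67.7 ± 24.4 CPM per kb (SD, n = 6), and Ibsp, which encodes bone sialoprotein, followed with 59.8 ± 14.3 CPM per kb (SD, n = 6). Their ranges overlapped, and both lay above every library of Spp1, at 20.1 ± 10.7 CPM per kb (SD, n = 6). Bglap with 10.6 and Bglap2 with 9.36 CPM per kb came next, and the range of Spp1 overlapped that of Bglap. Runx2 with 3.58 and Alpl with 3.39 CPM per kb overlapped each other and lay below both osteocalcin genes. Phex with 1.08 and Sp7 with 0.859 CPM per kb overlapped too, and Dmp1 was lowest with 0.202 CPM per kb, below all libraries of Sp7. The level per kilobase of Sparc exceeded that of 95.8% of the genes tested and that of Ibsp 95.3%, while Dmp1 exceeded 11.1%.

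**Figure D1:**
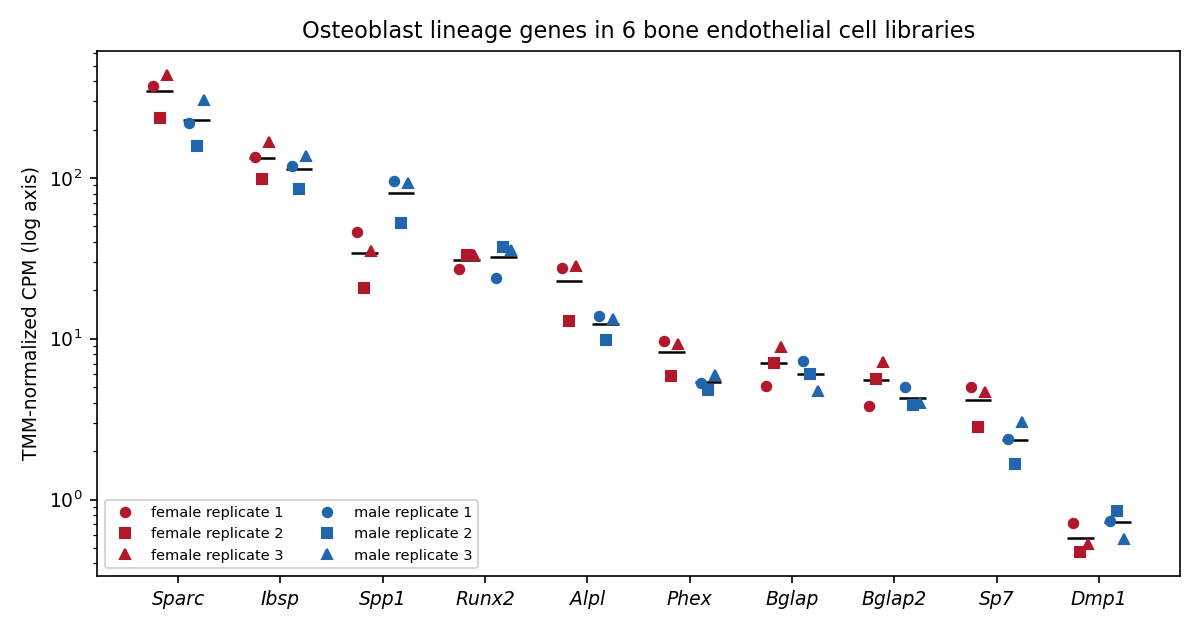
TMM-normalised CPM (log axis) of the 10 osteoblast lineage genes in each of the 6 libraries, females in red and males in blue, with the replicate shown by the shape of the point and a bar at the mean of each sex (n = 3). Spp1 was the single gene whose sexes did not overlap, from 20.7 to 46.3 CPM in females and from 52.4 to 95.03 CPM in males, and replicate 2 was the lowest library of its sex for 6 of the 10 genes in both sexes.

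The comparison of males with females asked whether any of these genes differed by sex. None of the 10 reached an adjusted p under 0.05 in the quasi-likelihood test of edgeR, where 0.0411% of the 19480 genes tested did. At an unadjusted p under 0.05 there were 5 of 10 in this test, where 9.79% of all genes tested were under it. Of these, 4 were lower in males (Sp7, Alpl, Phex and Sparc; 4.76% of all genes tested) and 1 was higher (Spp1; 5.03% of all genes tested). The Wald test of DESeq2 called 2 of the 10 at an adjusted p under 0.05, Alpl lower and Spp1 higher in males, where it called 2.08% of the 17252 genes to which it gave an adjusted p. Of the 10 log2 fold changes, 7 were below 0, against 50.2% of all genes tested, and the median was -0.30 against -0.0012 over all genes tested. All 10 genes encode proteins, and of the 14333 protein-coding genes tested 7792 were below 0, with a median of -0.026. Of those 14333 genes, 879 were lower in males at an unadjusted p under 0.05 by edgeR. The sexes did not overlap for 1 of the 10, Spp1, against 14.5% of all genes tested in either direction and 7.25% higher in males.

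Of the transcription factors, Runx2 (chr17:44806874-45125684, minus strand), the factor that commits cells to the lineage, had overlapping levels in the sexes. It had 27.1, 33.0 and 33.0 CPM in female replicates 1, 2 and 3 and 24.0, 37.4 and 35.6 CPM in male replicates 1, 2 and 3. The males spanned the females from below and above. Males over females, the log2 fold change was 0.06 (standard error, SE, 0.174, 95% interval -0.33 to 0.44, edgeR adjusted p = 0.942), which leaves differences of the size seen for Alpl or Spp1 outside the interval, and its sign turned when female replicate 1, male replicate 2 or male replicate 3 was left out. Runx2 overlaps Supt3 and 3 annotated antisense transcripts, whose reads could be shared with it if strand was not used in counting.

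Sp7 (chr15:102265038-102279370, minus strand) encodes osterix, needed for the step from committed progenitor to osteoblast. Female replicates 1, 2 and 3 had 5.01, 2.82 and 4.68 CPM, and male replicates 1, 2 and 3 had 2.37, 1.66 and 3.01 CPM. Female replicates 1 and 3 lay above all males, and female replicate 2 lay below male replicate 3. This gave males a log2 fold change of -0.83 (SE 0.322, unadjusted p = 0.0275 and edgeR adjusted p = 0.430), and across its alternatives it lay between -1.05 and -0.63. The ratio of Sp7 counts to Runx2 counts within a library ran from 0.0854 to 0.185 in females and from 0.0445 to 0.0990 in males, with overlap.

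Alpl (chr4:137469039-137524102, minus strand) encodes the tissue-nonspecific alkaline phosphatase, which degrades pyrophosphate, an inhibitor of mineral growth. It had 27.6, 12.9 and 28.3 CPM in female replicates 1, 2 and 3 and 13.8, 9.84 and 13.2 CPM in male replicates 1, 2 and 3. Female replicates 1 and 3 stood well above the other 4 libraries, and female replicate 2 lay within the male range. The mean was 22.9 ± 8.65 CPM in females (SD, n = 3) and 12.3 ± 2.13 CPM in males (SD, n = 3). This gave a log2 fold change of -0.90, a level in males of 0.536 times that in females (SE 0.274, unadjusted p = 0.00812 and edgeR adjusted p = 0.314). In the Wald test of DESeq2 the fold change was also -0.90 and the adjusted p was 0.0401, and over all alternatives the adjusted p lay between 0.0197 and 0.993.

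Phex (chrX:155945071-156198308, minus strand) encodes an endopeptidase of the osteoblast and osteocyte surface whose loss causes phosphate wasting. Its levels were 9.71, 5.83 and 9.28 CPM in female replicates 1, 2 and 3 and 5.33, 4.81 and 5.94 CPM in male replicates 1, 2 and 3. As for Alpl and Sp7, female replicate 2 was the female library that reached into the male range. Its log2 fold change came to -0.63 (SE 0.236, unadjusted p = 0.0237 and edgeR adjusted p = 0.415). Dmp1, an acidic matrix protein of osteocytes that nucleates mineral, was the lowest gene of the 10, with 25 to 45 counts per library. It had 0.715, 0.473 and 0.532 CPM in female replicates 1, 2 and 3 and 0.740, 0.852 and 0.569 CPM in male replicates 1, 2 and 3. For Dmp1 the estimate was 0.33 with a 95% interval from -0.66 to 1.31 (edgeR adjusted p = 0.852), an interval wide enough to hold the differences seen for most of the other members. The Dmp1 estimate lay between 0.19 and 0.53 when each library was left out in turn.

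Of the matrix genes, Sparc (chr11:55285317-55314067, minus strand), a collagen-binding glycoprotein, was the most abundant. Its levels were 371, 237 and 439 CPM in female replicates 1, 2 and 3 and 221, 157 and 306 CPM in male replicates 1, 2 and 3. Female replicates 1 and 3 again stood above all males. Its log2 fold change came to -0.61 (SE 0.267, unadjusted p = 0.0447 and edgeR adjusted p = 0.492), and its unadjusted p rose to as much as 0.165 when a library was left out, while over all alternatives the adjusted p lay between 0.0173 and 1.00. As for Alpl, the lowest came with the replicate number as a block. For Sparc, Sp7 and Phex alike, the unadjusted p from edgeR exceeded 0.05 when replicate 1 or 3 of the females or replicate 1 or 2 of the males was left out. Ibsp, an integrin-binding protein of mineralising matrix, had 136, 98.0 and 167 CPM in female replicates 1, 2 and 3 and 119, 85.2 and 138 CPM in male replicates 1, 2 and 3. The sexes overlapped widely, and the log2 fold change was -0.23 (SE 0.214, 95% interval -0.71 to 0.24, edgeR adjusted p = 0.767).

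Spp1, further along the same strand of the cluster than Ibsp, encodes osteopontin, a phosphoprotein of bone matrix that also acts as a cytokine. Female replicates 1, 2 and 3 had 46.3, 20.7 and 35.2 CPM, and male replicates 1, 2 and 3 had 95.03, 52.4 and 93.0 CPM. Every male library lay above every female library, and within each sex replicate 2 was lowest. The mean was 34.1 ± 12.8 CPM in females (SD, n = 3) and 80.1 ± 24.1 CPM in males (SD, n = 3), so that males had 2.35-fold more, or 1.23 on the log2 scale (SE 0.312, unadjusted p = 0.00371 and edgeR adjusted p = 0.244). When each library was left out in turn it lay between 0.97 and 1.53, with an unadjusted p from edgeR of at most 0.0163. In the Wald test of DESeq2 it was 1.24 with an adjusted p of 7.42e-04, and over all alternatives the adjusted p lay between 2.09e-04 and 0.615. Here too the lowest came with the replicate number as a block, which was not taken to pair the samples. Alpl and Spp1 each overlap another annotated gene, Gm63526 and Gm42793, with which reads could be shared.

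The osteocalcin genes Bglap and Bglap2 encode a hormone-like matrix protein that marks mature osteoblasts, and mice carry them as a tandem set with Bglap3. Their coding sequences, 288 nt each in GENCODE M39, are given because reads cannot always be assigned to 1 copy. In Bglap capitals mark the bases at which Bglap2 differs, and in Bglap2 and Bglap3 those that differ from Bglap:
Bglap: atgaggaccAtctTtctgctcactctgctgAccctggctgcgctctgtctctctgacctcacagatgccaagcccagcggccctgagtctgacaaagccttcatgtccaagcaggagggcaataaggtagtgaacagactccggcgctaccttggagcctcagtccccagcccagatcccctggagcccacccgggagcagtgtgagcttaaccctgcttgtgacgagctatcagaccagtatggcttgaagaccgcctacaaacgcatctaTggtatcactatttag
Bglap2: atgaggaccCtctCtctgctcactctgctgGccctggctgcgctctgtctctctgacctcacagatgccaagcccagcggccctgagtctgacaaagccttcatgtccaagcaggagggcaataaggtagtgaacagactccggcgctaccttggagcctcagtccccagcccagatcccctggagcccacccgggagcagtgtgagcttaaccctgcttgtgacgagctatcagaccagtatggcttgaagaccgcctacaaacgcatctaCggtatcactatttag
Bglap3: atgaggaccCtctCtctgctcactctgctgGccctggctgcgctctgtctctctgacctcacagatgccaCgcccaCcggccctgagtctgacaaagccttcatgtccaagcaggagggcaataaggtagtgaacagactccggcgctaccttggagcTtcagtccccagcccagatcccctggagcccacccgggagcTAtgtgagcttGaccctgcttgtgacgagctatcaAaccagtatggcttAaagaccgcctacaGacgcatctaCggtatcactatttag

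Bglap and Bglap2 differed at 4 coding positions (98.6% identity) and Bglap and Bglap3 at 13 (95.5% identity). Of all stretches of 40 nt along the Bglap transcript, 77.8% occurred unchanged in that of Bglap2, as did 56.3% of stretches of 100 nt, so the division of counts between these copies is uncertain. Bglap had 5.10, 7.02 and 8.92 CPM in female replicates 1, 2 and 3 and 7.29, 6.07 and 4.74 CPM in male replicates 1, 2 and 3. Bglap2 had 3.80, 5.64 and 7.15 CPM in female replicates 1, 2 and 3 and 5.01, 3.90 and 4.004 CPM in male replicates 1, 2 and 3. Both copies were lowest in replicate 1 and highest in replicate 3 among females, and the sexes overlapped. Log2 fold changes were -0.22 (SE 0.257, edgeR adjusted p = 0.825) for Bglap and -0.36 (SE 0.271, edgeR adjusted p = 0.711) for Bglap2, and -0.10 (edgeR adjusted p = 0.904) for the counts of the 3 copies summed.

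**Figure D2:**
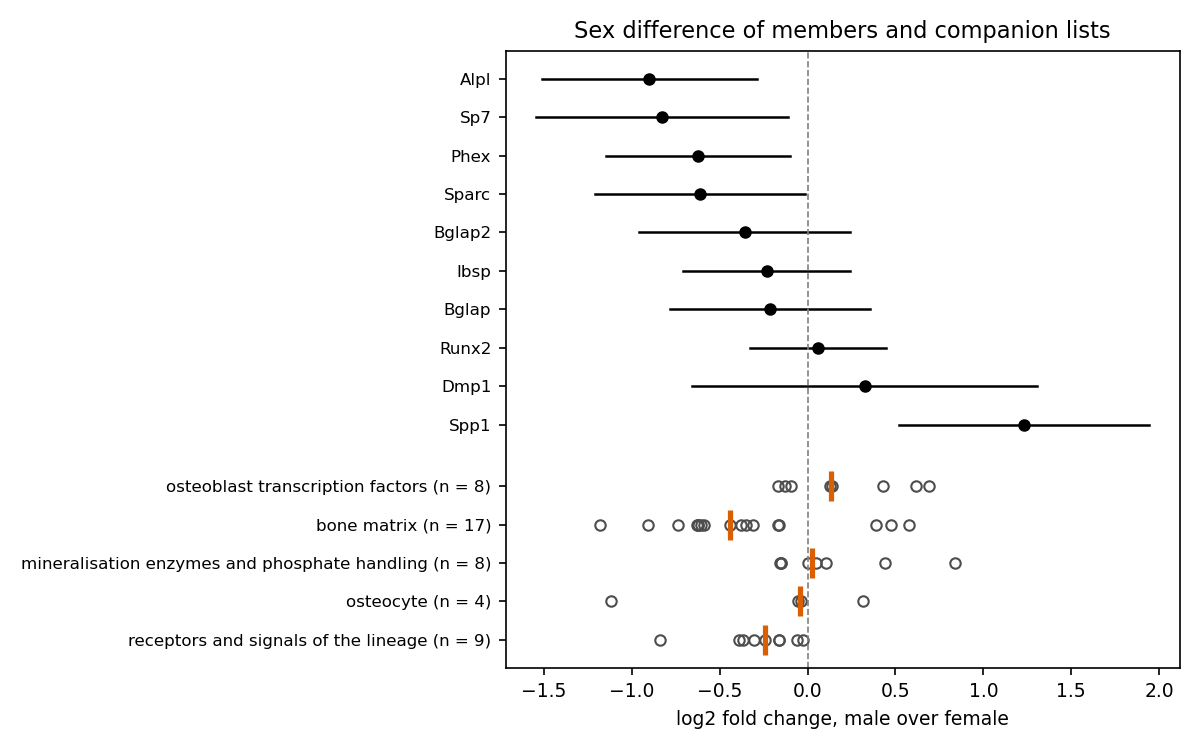
Log2 fold change of males over females from edgeR for each osteoblast lineage gene (filled circle, with the 95% interval as a line) and for the genes of 5 related lists (open circles, with the list median as an orange bar). The intervals of Alpl, Sp7, Phex and Sparc lie below 0 and that of Spp1 above it before adjustment for 19480 genes tested, and the median was -0.44 for 17 bone matrix genes and 0.13 for 8 transcription factors.

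Ratios of counts within a library need no scaling between libraries. Those given here were chosen after the values had been seen and are a description, and of 6 ratios computed, 3 did not overlap between the sexes. Spp1 per Ibsp was 0.341, 0.212 and 0.210 in female replicates 1, 2 and 3 and 0.801, 0.614 and 0.676 in male replicates 1, 2 and 3. Ibsp per Sparc was 0.366, 0.413 and 0.381 in female replicates 1, 2 and 3 and 0.537, 0.542 and 0.449 in male replicates 1, 2 and 3. Of the 3 ratios without overlap, 2 contain Spp1, whose own levels did not overlap. Alpl per Sparc, in contrast, had 0.0644 ± 0.00986 in females (SD, n = 3) and 0.0560 ± 0.0110 in males (SD, n = 3), with overlap, and Bglap2 per Bglap overlapped as well.

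**Figure D3:**
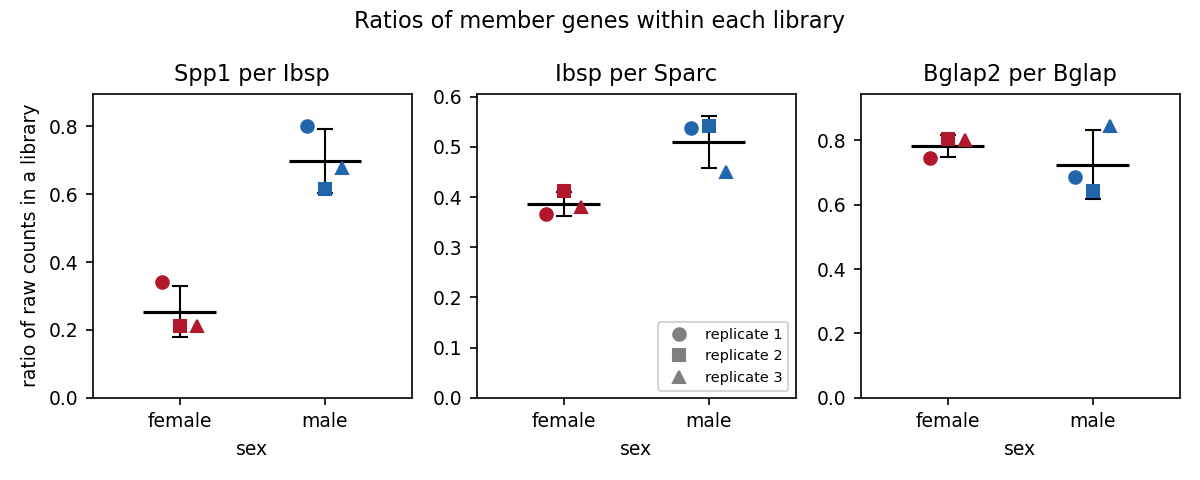
Ratio of raw counts of 2 genes within each library, for Spp1 per Ibsp, Ibsp per Sparc and Bglap2 per Bglap, with each point 1 library, the long bar the mean and the whiskers the SD of 3 libraries per sex. Spp1 per Ibsp lay from 0.210 to 0.341 in females and from 0.614 to 0.801 in males, whereas Bglap2 per Bglap overlapped.

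The 10 genes fell into different patterns over the 6 libraries. Sp7, Alpl, Phex, Sparc and Ibsp had a like shape, lowest in male replicate 2 and highest in female replicates 1 and 3 (for Ibsp, in female replicate 3 and male replicate 3), and the Pearson correlations of their log2 CPM with each other lay between 0.777 and 0.983 (6 libraries). These correlations are a description, since the 6 points come from the same libraries and from 2 sexes. Bglap and Bglap2 were correlated with each other (0.910), and Bglap with Sp7 at 0.0545 and with Sparc at 0.0990. Runx2 had negative correlations with all 9 other genes, from -0.35 with Alpl to -0.04 with Bglap2. Spp1 was closest to Dmp1 (0.535) and stood at 0.158 with Ibsp of the same cluster.

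**Figure D4:**
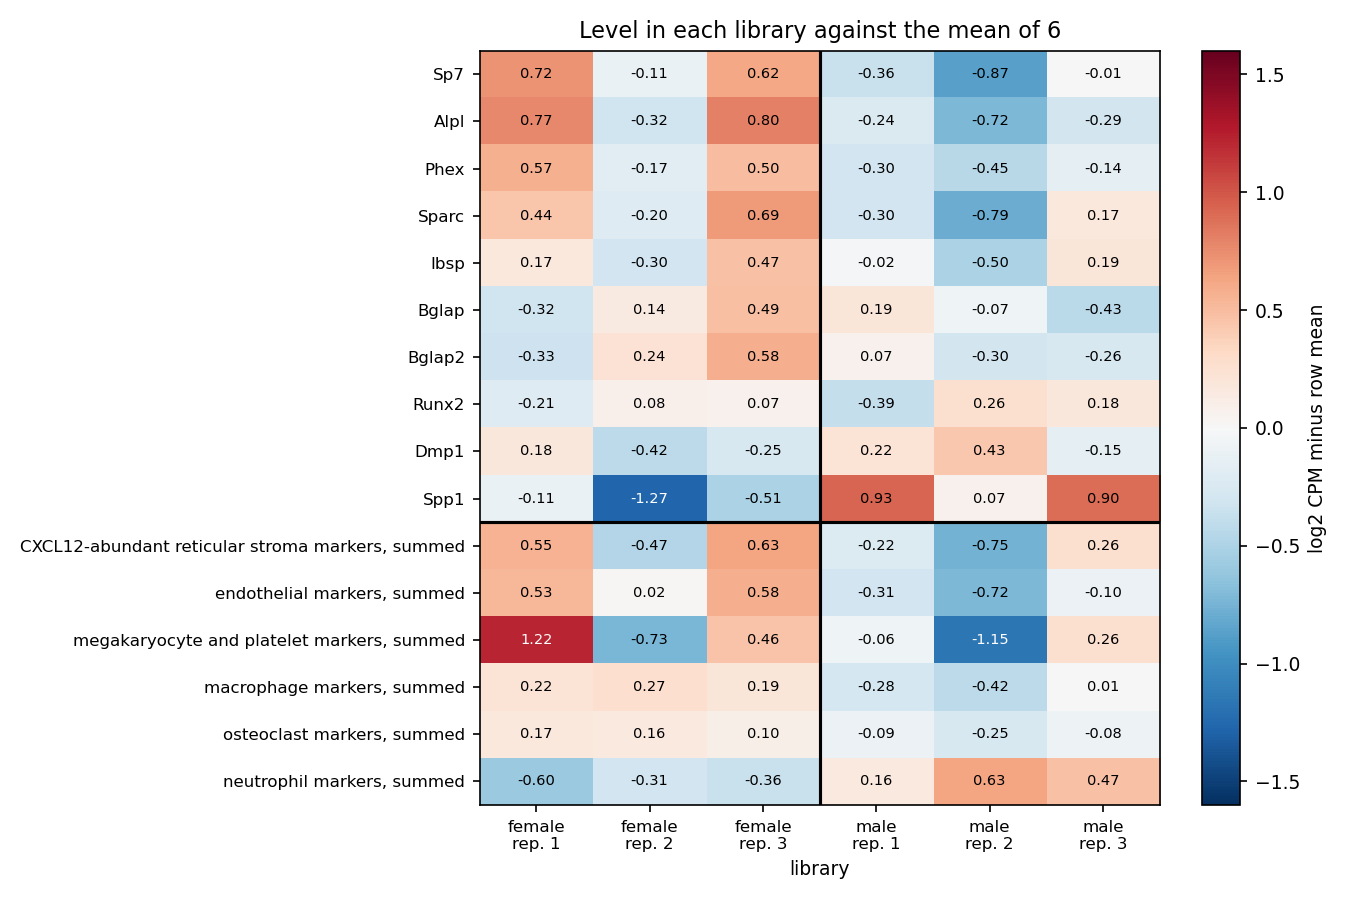
Log2 CPM minus the mean of the 6 libraries for each osteoblast lineage gene (above the horizontal line) and for the summed CPM of marker lists of other cell types (below it), with females left and males right of the vertical line. Alpl lay at 0.77 and 0.80 in female replicates 1 and 3 and at -0.72 in male replicate 2, where the CAR stroma markers lay at 0.55, 0.63 and -0.75.

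Markers of some other cells moved over the same libraries. The sum of CAR stroma markers, led by Cxcl12 and Adipoq, was 2659, 1310 and 2808 CPM in female replicates 1, 2 and 3 and 1562, 1079 and 2173 CPM in male replicates 1, 2 and 3. Endothelial markers, led by Stab2 and Pecam1, summed to 558, 393 and 577 CPM and to 313, 235 and 362 CPM in the same order. As for Sp7, Alpl, Phex and Sparc, male replicate 2 was lowest and female replicate 3 at or near the top. Megakaryocyte and platelet markers, led by Pf4 and Ppbp, ranged from 51.0 to 197 CPM in females and from 38.0 to 101 CPM in males. Replicate 2 was the lowest library of both sexes for 6 of the 10 OBL genes, 8 of 8 CAR stroma markers, 14 of 18 endothelial markers and 6 of 7 megakaryocyte markers, against 9.49% of all genes tested. No neutrophil, chondrocyte or mural marker had this order, and most macrophage and osteoclast markers did not have it. The part of these cells in the values of the OBL genes was not tested.

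The remaining lists were summed in the same way. Neutrophil markers, led by S100a9 and S100a8, summed to 17868 to 21771 CPM in females and to 30228 to 41860 CPM in males, and macrophage markers, led by Vcam1 and C1qa, summed to 5160 to 5464 CPM in females and to 3385 to 4555 CPM in males. Osteoclast markers, led by Acp5 and Itgb3, ran from 221 to 232 CPM in females and from 173 to 196 CPM in males. The sums of the neutrophil, macrophage, osteoclast and endothelial markers did not overlap between the sexes, the first higher and the others lower in males. Single markers did not all follow their sum: the log2 fold change of Ocstamp and of Atp6v0d2, both osteoclast markers, was 0.41, and that of the neutrophil markers Mpo and Ctsg was -0.61 and -0.03. The part of these cells in the level of Spp1 was not tested. In edgeR's test none of the markers of the 8 cell types listed was called at an adjusted p under 0.05, although at an unadjusted p under 0.05 there were 13 of 18 endothelial, 4 of 8 CAR stroma and 10 of 10 macrophage markers lower and 7 of 12 neutrophil markers higher in males, against 4.76% of all genes tested lower and 5.03% higher. Under this threshold there were also 2 chondrocyte and 2 osteoclast markers lower, 1 mural marker in each direction and 0 megakaryocyte markers. DESeq2, with its 2.08% of all genes called, called 7 of 17 endothelial, 1 of 8 CAR stroma, 1 of 4 mural and 2 of 10 macrophage markers lower and 6 of 12 neutrophil markers higher in males. Chondrocyte markers, led by Col2a1 and Sox9, summed to between 9.62 and 23.0 CPM and mural markers, led by Rgs5 and Acta2, to between 25.4 and 49.4 CPM.

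Related genes of the lineage were taken from 5 lists, and none of their genes was called at an adjusted p under 0.05 by edgeR. The 8 further transcription factors had a median log2 fold change of 0.13, with 0 under an unadjusted p of 0.05 by edgeR and 0 of 7 called by DESeq2. Atf4, a factor of amino acid supply for matrix synthesis, had 80.4, 73.4 and 72.7 CPM in female replicates 1, 2 and 3 and 82.9, 90.7 and 75.3 CPM in male replicates 1, 2 and 3. Dlx6, a homeobox gene of the developing skeleton, showed a log2 fold change of 0.43 (edgeR adjusted p = 0.608).

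The 17 bone matrix genes had a median of -0.44, with 14 log2 fold changes below 0 (50.2% of all genes tested), 4 under an unadjusted p of 0.05 by edgeR, all lower in males (4.76% of all genes tested), and 0 of 16 called by DESeq2. Bgn, which encodes the proteoglycan biglycan, had 202, 105 and 204 CPM in female replicates 1, 2 and 3 and 121, 81.6 and 134 CPM in male replicates 1, 2 and 3, the pattern of Sparc. Col1a2, a chain of type I collagen, showed a log2 fold change of -0.31 (edgeR adjusted p = 0.722). In 13 of the 17 genes replicate 2 was the lowest library of both sexes.

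The 8 genes of mineralisation and phosphate handling had a median of 0.02. The list was led by Mmp13, a collagenase, with a log2 fold change of 0.44 (edgeR adjusted p = 0.597), and by Slc20a1, a phosphate transporter, with 0.10 (edgeR adjusted p = 0.855). Phospho1, a phosphatase that releases phosphate inside matrix vesicles and is named here after its values were seen, was the 1 gene of the 8 under an unadjusted p of 0.05 by edgeR (9.79% of all genes tested) and the 1 of 8 called by DESeq2 (2.08% of all genes it tested). It had 3.96, 5.64 and 5.83 CPM in female replicates 1, 2 and 3 and 7.67, 10.4 and 9.57 CPM in male replicates 1, 2 and 3, without overlap and opposite in direction to Alpl. The log2 fold change of Phospho1 was 0.84 (SE 0.223, unadjusted p = 0.00347 and edgeR adjusted p = 0.241).

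Of the 7 osteocyte genes, 4 passed the filter on low counts. Sost had 0 to 4 counts per library, Mepe 0 to 5 and Fgf23 0 to 11, so these osteocyte transcripts were scarcer than Dmp1, which had 25 to 45 counts. Cd44, which white blood cells also express, was the most abundant of the list, and Dkk1, a Wnt inhibitor, showed a log2 fold change of -0.04 (edgeR adjusted p = 0.986). Cd44 had 145, 149 and 158 CPM in female replicates 1, 2 and 3 and 185, 198 and 181 CPM in male replicates 1, 2 and 3, a log2 fold change of 0.32 (unadjusted p = 0.0161 and edgeR adjusted p = 0.379). Irx5, lower in males, was the other of the 4 genes under an unadjusted p of 0.05 by edgeR, against 9.79% of all genes tested, and DESeq2 called 0 of the 3 genes it tested.

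The 9 receptors and signals of the lineage all had log2 fold changes below 0 (50.2% of all genes tested), with a median of -0.24, 3 under an unadjusted p of 0.05 by edgeR (4.76% of all genes tested) and 0 of 8 called by DESeq2. Lrp5, a Wnt co-receptor that sets bone mass, had 41.1, 34.8 and 44.3 CPM in female replicates 1, 2 and 3 and 32.6, 27.1 and 33.4 CPM in male replicates 1, 2 and 3. The sexes did not overlap, and the log2 fold change of Lrp5 was -0.37 (SE 0.136, unadjusted p = 0.0221 and edgeR adjusted p = 0.405). Wif1, a secreted Wnt inhibitor, showed a log2 fold change of -0.16 (edgeR adjusted p = 0.890) and overlapped.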

How the data were processed

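Gene counts of 3 female and 3 male libraries of BECs from mice aged 12 weeks were analysed. The authors deposited whole-number counts of reads per gene and library, without normalization. The labels' processing notes name TopHat2 2.0.11 and featureCounts, with mm9, while the study's methods give STAR and GRCm39. Read length, library kit and RNA selection also differ between both sources, and the annotation release and the use of strand in counting are not given in the sources used here, so overlapping or antisense genes could share reads.

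Symbols and positions came from GENCODE M39 (GRCm39), which matched 31073 of 37991 identifiers, and exon lengths may differ from the models counted. Promoters came from RefSeq on GRCm38.p6. Males were compared with females in edgeR 4.0.16 (R 4.3.3) with TMM scaling, its default low-count filter (by sex) and robust quasi-likelihood fits, two-sided, with Benjamini-Hochberg adjustment over 19480 genes and a threshold of 0.05. Standard errors are the log2 fold change over the square root of F. The fit was tested on simulated data. Correlations used log2(CPM + 0.1). The smallest chi-square per degree of freedom over all pairs of libraries was 33.6, so no library was a copy of another. Depth floors cover counting error only.

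The genes and lists were chosen with earlier results of these data known. Named genes were all 10 members, the 2 highest per kilobase of each related list, the 2 most abundant of each marker list and the 5 genes most correlated with the members' mean profile. Other genes (Phospho1, Irx5, Ocstamp, Atp6v0d2, Mpo, Ctsg and the calls of the replicate block) were named after their values were seen, and Emcn, Sost, Mepe and Fgf23 as the sort gene and the osteocyte genes that were not tested. Ankh is listed as Ank in the annotation. Alternatives were DESeq2 size factors, total counts alone, no filter, at least 10 counts in every library, the Wald test of DESeq2 1.42.0, the replicate number (from the labels) as a block, summed osteocalcin copies and each library left out in turn.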

Additional observations from a re-analysis of the deposited data

How the results depend on the processing

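Of the 10 osteoblast lineage genes, 9 kept the direction of their log2 fold change (male over female) under every alternative run. Runx2 did not, lying between -0.058 and 0.23 when each library was left out in turn, and the cause was not tested. Without female replicate 3, Bglap went from -0.22 to -0.0066, Bglap2 from -0.36 to -0.13 and Ibsp from -0.23 to -0.039. Without female replicate 1, Bglap2 went to -0.56. The Wald test of DESeq2 called 2 of the genes, Alpl at -0.90 (adjusted p = 0.0401) and Spp1 at 1.24 (adjusted p = 7.42e-04). With the replicate number as a block, edgeR called 428 of 19480 genes and 3 of the 10, Alpl at -0.84 (adjusted p = 0.0197), Spp1 at 1.26 (adjusted p = 2.09e-04) and Sparc at -0.62 (adjusted p = 0.0173). Over all alternatives the adjusted p lay between 0.0197 and 0.993 for Alpl, between 2.09e-04 and 0.615 for Spp1 and between 0.0173 and 1.00 for Sparc. The block also called 3 of 17 bone matrix genes (Bgn, Col5a1 and Serpinh1) lower and Phospho1 higher in males, and 12 of 18 endothelial, 2 of 8 CAR stroma, 1 of 10 macrophage, 1 of 6 osteoclast and 1 of 5 mural markers lower and 6 of 12 neutrophil markers higher. Same-numbered libraries had deviations that correlated across genes by 0.194, 0.0402 and 0.298, not all over 0.1, so the numbers were not taken to pair the samples. By this correlation male replicate 2 was closest to female replicate 1 (0.131), whereas by the chi-square per degree of freedom of the counts each male library was closest, among females, to that of its own number (64.7, 111 and 84.5). No setting that left out a library called any of the 10. Over all genes, the number called went from 8 to 14 with total counts alone, to 98 without the filter on low counts, to 359 of 17252 with DESeq2 and to 428 with the replicate block. When each library was left out in turn, the number called lay between 5, without female replicate 2, and 96, without male replicate 3. The cause of these shifts was not tested. With 3 libraries a sex and 25 to 45 counts of Dmp1 per library, small differences were not resolvable.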

Other observations

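The members' log2 CPM, each standardised over the 6 libraries and averaged, gave a common profile. Each member is part of this profile, so its own r with the profile is not independent of it. Ibsp (Pearson's r 0.926), Alpl (0.923), Sparc (0.917), Phex (0.881) and Sp7 (0.858) lay closest to it, Bglap2 (0.512) and Bglap (0.352) less so, and Spp1 (-0.0863), Runx2 (-0.197) and Dmp1 (-0.306) ran across it. Among 12668 other protein-coding genes with a mean of at least 1 CPM, 180 had r above 0.9 over these 6 libraries. The highest were Zfp423 (0.989), a zinc-finger factor of mesenchymal and adipose progenitors, Ndnf (0.988), a secreted glycoprotein, Phldb2 (0.979), Nrip1 (0.976), a corepressor of nuclear receptors, and Myo6 (0.974), an actin motor. Their log2 fold changes of males over females lay between -0.81 for Ndnf and -0.20 for Nrip1, with adjusted p from edgeR between 0.468 and 0.719. These correlations carry no test, since they rest on the same 6 libraries of 2 sexes.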
